A study of Mus musculus with 96 samples.

Results

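Piericidin, an inhibitor of complex I of the respiratory chain, was compared directly with oligomycin, an inhibitor of ATP synthase, in proliferating C2C12 myoblasts that expressed luciferase as a control protein. The comparison was defined by the sample labels and took 6 of the 96 samples of the series, 3 for each inhibitor. The series measured gene expression by RNA-seq in C2C12 cells, a mouse muscle precursor line, to follow the integrated stress response (ISR) after mitochondrial defects in dividing and differentiated cells. All 6 samples came from 1 stable line with a lentiviral, doxycycline-inducible luciferase gene, kept in medium with 10% dialyzed fetal bovine serum, 10 mM glucose, 4 mM glutamine, 300 ng/ml doxycycline and no pyruvate. Treatment lasted 10 hr for both inhibitors, at 0.5 µM piericidin and 1 µM oligomycin, so the concentrations differed. Context came from 3 DMSO samples of the same luciferase line. It also came from 6 myoblast samples of a second inducible line that expressed the cytosolic NADH oxidase LbNOX. A last set was 6 samples of untransduced myotubes after 4 days in low-serum medium, with 2% dialyzed horse serum and no doxycycline. The latter 2 sets had the same inhibitors and times. The labels do not say that the 3 replicates of a group were separate cultures, so the spread between replicates may be technical. P-values rest on that spread over all samples of a fit, not over the compared samples alone.

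Complex I takes electrons from NADH and pumps protons, so its block stops the chain from oxidizing NADH and lowers respiration. ATP synthase uses the proton gradient to make ATP, so its block leaves the chain intact but holds the gradient high and respiration low. Both kinds of block are known to engage the ISR, in which kinases that phosphorylate the translation factor eIF2α lower general protein synthesis and raise translation of ATF4, a transcription factor for amino acid synthesis, transport and stress genes.

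The 6 samples held between 9282791 and 12313851 estimated counts. The luciferase transcript checked the labels, with 1964 to 2574 counts in the piericidin samples, 1053 to 1183 in the oligomycin samples and none of the other 3 transgenes in either group. In CPM, counts scaled to a common library size after TMM normalization and the unit of every level below, luciferase was 236, 212 and 268 with piericidin and 91, 98.9 and 129.5 with oligomycin, against 177 ± 6.04 with DMSO (SD, n = 3), so the transgene itself was higher with piericidin (log2 fold change 1.17, SE 0.13, adjusted p = 6.21e-06, edgeR). The part of this transgene difference in other results was not tested. All 8 myoblast markers, among them Myod1 and Des, were expressed, with a summed level of 5616 to 5907 CPM with piericidin and 5602 to 5717 CPM with oligomycin. Of 14 markers of differentiating muscle only 3 passed the filter on low counts, and Myog, Mymk and Ckm were among those left out. All 14 together summed to 28.8 to 34.7 CPM with piericidin and 23.9 to 31.8 CPM with oligomycin. Of 9 markers of fibroblasts and adipocytes 2 passed and 2 were at 0 in all 6 samples, and all 9 together summed to at most 8.44 CPM. None of the 5 markers of other cell states that passed was called, and their part in the results was not tested. In these bulk samples, fewer cells of a type and less RNA per cell cannot be told apart. The labels hold a code of a letter and a number, which they do not explain and which reads like a plate position, and its number was 2 or 3 for piericidin and 4 or 5 for oligomycin, so this number and the treatment cannot be told apart.

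Of 11981 genes tested, 4693 differed between the inhibitors at an adjusted p under 0.05 (edgeR quasi-likelihood F test, Benjamini-Hochberg adjustment over all genes tested), which is 39.2% of the genes and is the background for counts of called genes in this comparison. The difference ran both ways, with 2393 genes higher with piericidin (20% of genes) and 2300 lower (19.2%). By size, 273 genes (2.28%) were called and at least 2-fold higher and 338 (2.82%) at least 2-fold lower, and the median size of a called difference was 0.51 on the log2 scale. The median over all genes was -0.0016. At 46.9% of genes the 3 values of one inhibitor all lay above the 3 of the other. Below, a log2 fold change is that of piericidin over oligomycin unless another pair is named, SE is its standard error, and a called gene has an adjusted p under 0.05. Where a list's median moved by over 1.5 times or changed sign in any of 12 alternative fits, its range over them is given in brackets.

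**Figure D1:**
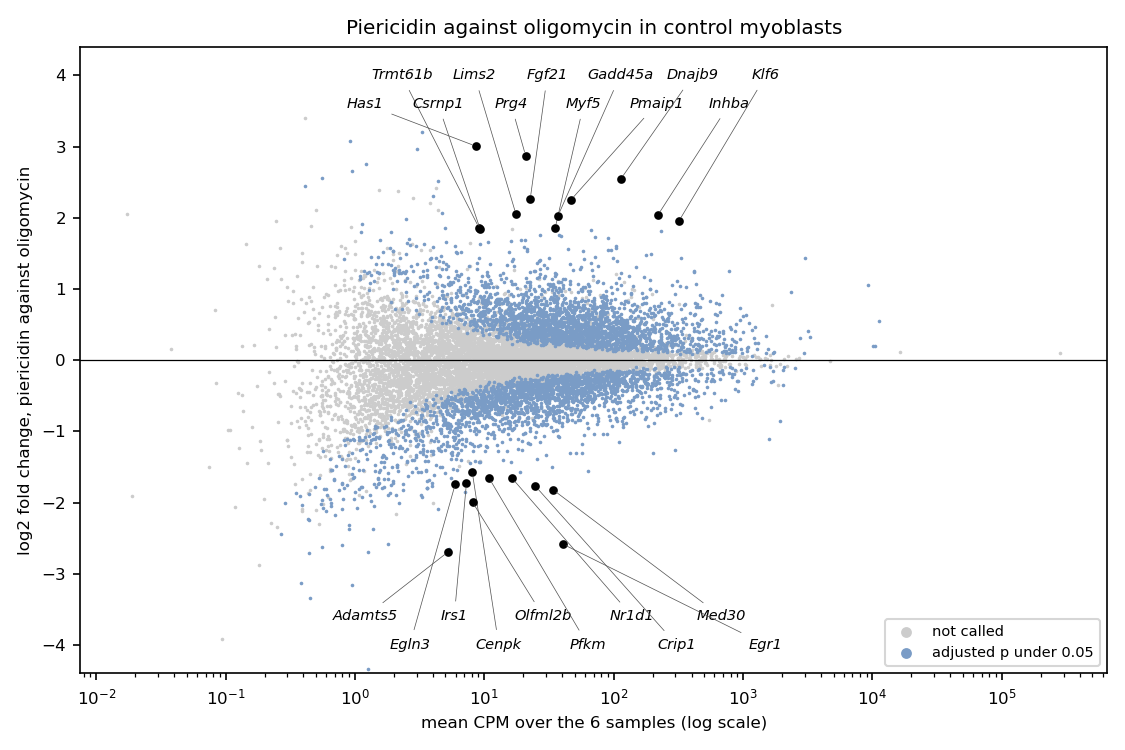
Log2 fold change of piericidin over oligomycin in control myoblasts (vertical axis) against the mean CPM over the 6 samples (horizontal axis, log scale) for the genes tested. Blue points are called genes and grey points are not, and the 22 labelled genes are those described first, from Has1 at 3.01 to Adamts5 at -2.69.

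The 12 named genes that stood highest with piericidin included secreted factors, stress regulators and an enzyme of matrix synthesis, and all 12 rose against DMSO with piericidin (61.7% of all genes were called in that comparison and 30.9% were higher). The piericidin samples that chose these genes, and the lowest ones described next, are the same ones compared with DMSO, so nothing is read from such counts. Has1 (ENSMUSG00000003665, chr17:17843323-17855205), a plasma membrane enzyme that makes hyaluronan, measured 16.2, 14 and 15.6 CPM in the 3 piericidin samples and 1.56, 1.51 and 2.72 CPM in the 3 oligomycin samples, against 3.54, 1.7 and 1.61 CPM with DMSO (log2 fold change 3.01, SE 0.35, adjusted p = 3.4e-08). The oligomycin samples overlapped the DMSO samples, while all piericidin samples were far above it. Prg4 (ENSMUSG00000006014, chr1:150449412-150466165), which encodes the joint lubricant lubricin, was 30.1, 36.2 and 43.5 CPM with piericidin and 3.97, 3.01 and 8.29 CPM with oligomycin (log2 fold change 2.87, SE 0.33, adjusted p = 3.12e-08). Unlike Has1 it was also above its DMSO level of 0.387 ± 0.132 CPM in every oligomycin sample. Fgf21 (ENSMUSG00000030827, chr7:45613886-45615490), an endocrine growth factor and ISR target, measured 35, 39 and 38.2 CPM with piericidin and 6.65, 6.52 and 10.3 CPM with oligomycin, against 0.177, 0.068 and 0.0896 CPM with DMSO (log2 fold change 2.27, SE 0.28, adjusted p = 8.37e-08). Both inhibitors thus raised Fgf21 from almost nothing, and the 2 groups did not overlap. Inhba (ENSMUSG00000041324, chr13:16011851-16031621), the activin A subunit, was 364, 337 and 351 CPM with piericidin and 91.2, 83.6 and 82.2 CPM with oligomycin (log2 fold change 2.03, SE 0.063, adjusted p = 6.98e-21), and its values within each group lay close together.

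Among the regulators, Dnajb9 (ENSMUSG00000014905, chr12:44205559-44210326), a co-chaperone of the endoplasmic reticulum (ER) that restrains the stress sensor IRE1, was 191, 202 and 187 CPM with piericidin and 32.1, 33.4 and 33.8 CPM with oligomycin, against 27.8 ± 1.7 CPM with DMSO (log2 fold change 2.54, SE 0.084, adjusted p = 2.32e-20). This was a 5.83-fold difference, and oligomycin stood only 0.25 above DMSO on the log2 scale. Klf6 (ENSMUSG00000000078, chr13:5861482-5870394), a zinc finger transcription factor of the early response, showed the same arrangement at a higher level, with 496, 519.9 and 504 CPM against 130.2, 137 and 125 CPM (log2 fold change 1.95, SE 0.053, adjusted p = 1.5e-22). Gadd45a (ENSMUSG00000036390, chr6:67035096-67037457), a growth arrest protein, was 60.8, 45.5 and 71.3 CPM with piericidin and 12.7, 14.4 and 16.8 CPM with oligomycin, from 0.818 ± 0.469 CPM with DMSO (log2 fold change 2.02, SE 0.22, adjusted p = 9.91e-09). Its piericidin samples varied more than those of Klf6 but stayed well apart from the oligomycin samples. Pmaip1, which encodes the pro-apoptotic protein NOXA, was 79.9, 85.4 and 65.4 CPM against 16.6, 16.3 and 15.6 CPM (log2 fold change 2.25, SE 0.11, adjusted p = 1.2e-16). Myf5, a determination factor of the muscle lineage, was 56.4, 56.4 and 53 CPM against 14.2, 14.1 and 17.6 CPM (log2 fold change 1.86, SE 0.13, adjusted p = 8.48e-13). The remaining 3 genes of this group were Lims2, an adaptor of integrin adhesions, at 2.05, Trmt61b, whose measured row the annotation types as an antisense gene, at 1.86, and the transcription factor Csrnp1, at 1.84 on the log2 scale.

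Of the 10 named genes that stood lowest with piericidin, 9 fell against DMSO with piericidin (30.8% of all genes were lower in that comparison). With oligomycin 7 of these also fell and 1 of the 10, Med30, rose (50.8% of all genes were called with oligomycin, 26.3% lower and 24.5% higher). Adamts5 (ENSMUSG00000022894, chr16:85856173-85901828), a protease that cleaves the proteoglycan aggrecan, was 1.01, 2.16 and 1.04 CPM with piericidin and 10.0, 8.7 and 8.63 CPM with oligomycin, against 12, 12.2 and 9.68 CPM with DMSO (log2 fold change -2.69, SE 0.27, adjusted p = 2.56e-09). Its oligomycin samples lay near the DMSO level, and its piericidin samples well below both. Crip1 (ENSMUSG00000006360, chr12:113146316-113153879), a small LIM domain protein, was 12, 11.8 and 9.99 CPM with piericidin, 36, 39.9 and 39.2 CPM with oligomycin and 129, 115 and 116 CPM with DMSO (log2 fold change -1.77, SE 0.14, adjusted p = 1.49e-11). Irs1 (ENSMUSG00000055980, chr1:82233101-82291416), the adaptor that carries insulin and IGF signals from their receptors, was 4.14, 3.35 and 2.6 CPM, 11.2, 9.03 and 13.3 CPM and 37.5, 33.4 and 40.5 CPM in the same 3 groups (log2 fold change -1.72, SE 0.17, adjusted p = 2.25e-09). For both Crip1 and Irs1 no sample of one group overlapped another.

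Egr1, an immediate early transcription factor, was 12.3, 12.1 and 10.1 CPM with piericidin and 65.8, 69.4 and 71.4 CPM with oligomycin (log2 fold change -2.58, SE 0.12, adjusted p = 1.2e-16), with DMSO samples at 69.5, 104 and 103 CPM. Pfkm (ENSMUSG00000033065, chr15:98092589-98132451), the muscle subunit of the glycolytic enzyme phosphofructokinase, was 5.71, 4.33 and 5.72 CPM against 17.5, 18.8 and 12.9 CPM (log2 fold change -1.65, SE 0.13, adjusted p = 1.68e-11). The piericidin samples were the lower ones for both genes, and DMSO was the highest group for Pfkm (34.4 ± 1.71 CPM). Nr1d1 (ENSMUSG00000020889, chr11:98767932-98775333), the nuclear receptor REV-ERBα of the circadian clock, was 8.28, 6.38 and 8.95 CPM with piericidin and 30.5, 20.8 and 23.2 CPM with oligomycin (log2 fold change -1.66, SE 0.14, adjusted p = 3.12e-11), and the DMSO samples (23.3, 24.4 and 22.6 CPM) lay within the oligomycin range. The other 4 genes were the secreted protein Olfml2b (-1.99), the oxygen-sensing prolyl hydroxylase Egln3 (-1.74), the kinetochore protein Cenpk (-1.57) and the Mediator subunit Med30 (-1.82), the last with the widest error of the 22 (SE 0.48, oligomycin samples 36.5, 42.1 and 80.2 CPM). The libraries were not strand specific, and the spans of Prg4, Pfkm, Cenpk and Nr1d1 overlap expressed genes on the opposite strand (Tpr, Senp1, Ppwd1 and Thra). Reads from the shared stretches cannot be told apart. The Trmt61b row overlaps Spdya on the opposite strand, which had at most 6 counts in any of the 6 samples.

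**Figure D2:**
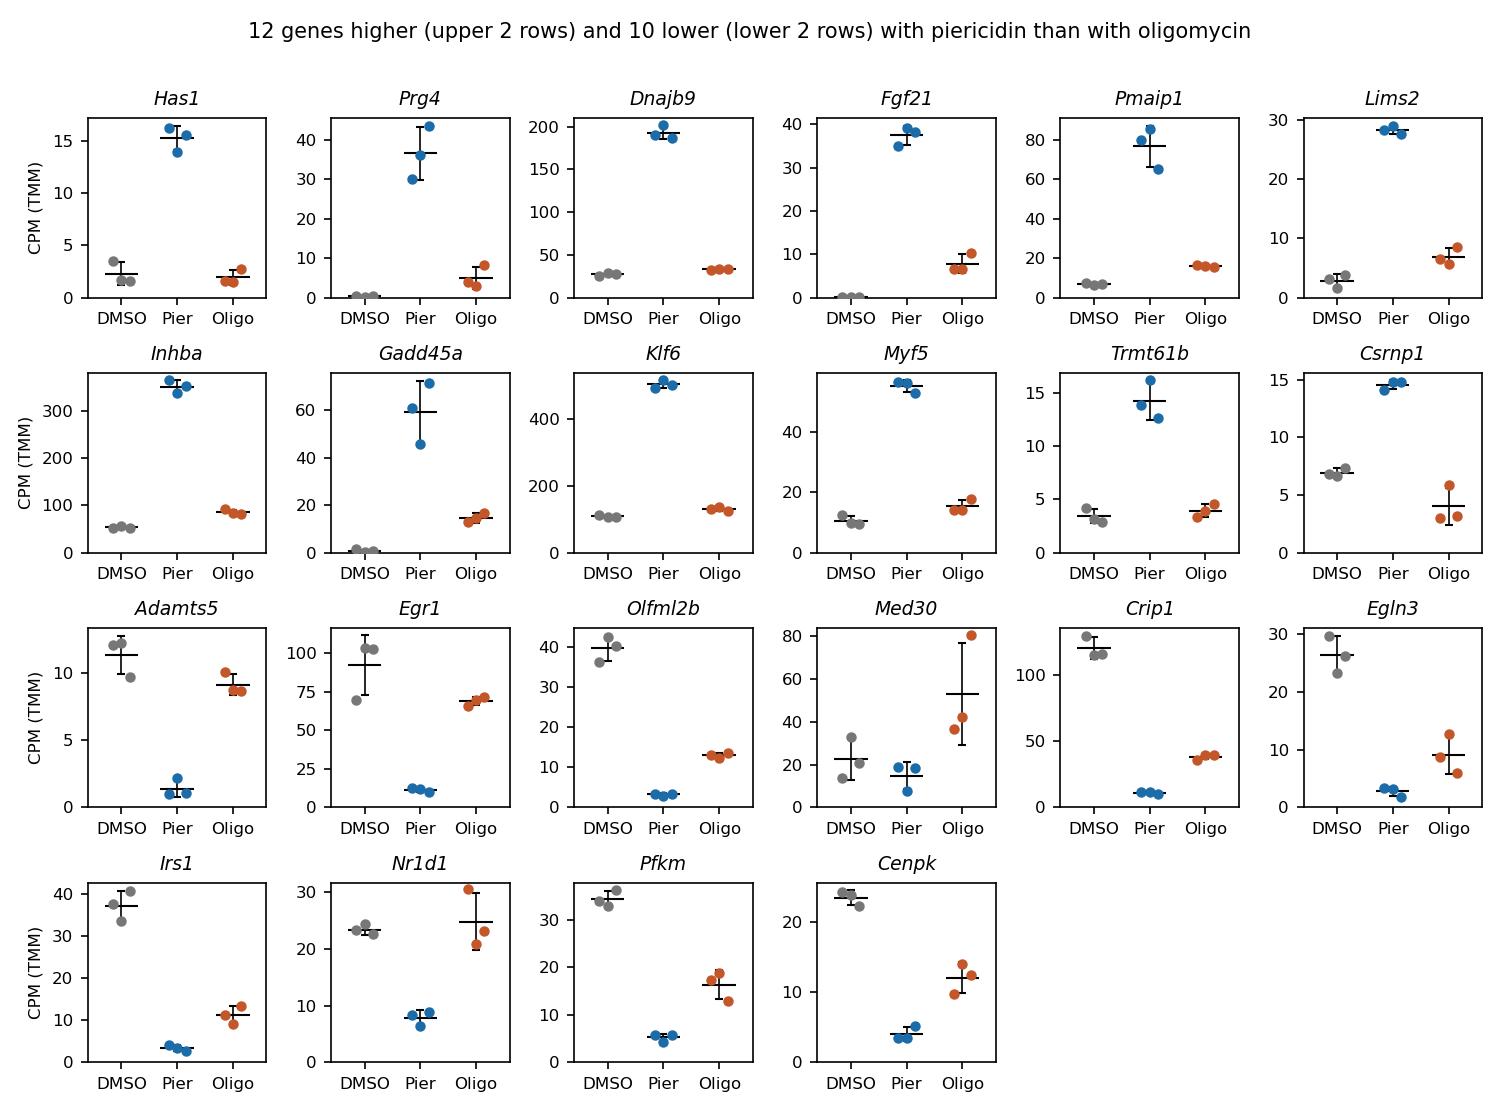
Level in CPM (vertical axes, each from 0) of the 12 genes highest and 10 of the genes lowest with piericidin relative to oligomycin, in the 3 DMSO, 3 piericidin (Pier) and 3 oligomycin (Oligo) samples of control myoblasts. Points are samples, horizontal lines are means and bars are SD, and in each panel the piericidin points lie entirely above or entirely below the oligomycin points, as for Dnajb9 (193 ± 7.71 against 33.1 ± 0.883) and Egr1 (11.5 ± 1.23 against 68.9 ± 2.82).

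RefSeq promoter windows, 250 bases before to 50 bases after a transcription start site on build GRCm38.p6, were found for 9 of the 12 genes highest with piericidin and 7 of the 10 lowest. They were searched on both strands for TGATGNAAN (the CEBP-ATF element bound by ATF4), TGACGTCA (the cAMP response element), CACGTG (an E-box), ACGTG (the core of hypoxia and E-box elements, contained in each CACGTG), TTTNGCGC (an E2F element), TGANTCA (an AP-1 element) and the serum response element. The 4 windows shown hold a match and belong to genes at opposite ends of the comparison, with the matched letters in capitals. The windows are chr17:17855139-17855438 for Has1, chr12:44210019-44210318 for Dnajb9 and chr7:45615441-45615740 for Fgf21, all on the minus strand and all higher with piericidin, and chr15:98092339-98092638 on the plus strand for Pfkm, which was lower.
Has1: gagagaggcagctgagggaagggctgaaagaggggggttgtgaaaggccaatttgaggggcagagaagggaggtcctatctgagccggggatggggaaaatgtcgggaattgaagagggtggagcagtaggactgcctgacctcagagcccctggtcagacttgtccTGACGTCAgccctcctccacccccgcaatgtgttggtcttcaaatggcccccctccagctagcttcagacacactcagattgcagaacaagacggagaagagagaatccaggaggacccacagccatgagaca
Dnajb9: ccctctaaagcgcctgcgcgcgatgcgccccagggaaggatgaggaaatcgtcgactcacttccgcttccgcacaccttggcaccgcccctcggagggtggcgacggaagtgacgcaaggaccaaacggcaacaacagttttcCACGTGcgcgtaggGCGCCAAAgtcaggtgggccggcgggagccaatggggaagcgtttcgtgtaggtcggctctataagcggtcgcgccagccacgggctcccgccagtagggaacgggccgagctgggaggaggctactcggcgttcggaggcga
Fgf21: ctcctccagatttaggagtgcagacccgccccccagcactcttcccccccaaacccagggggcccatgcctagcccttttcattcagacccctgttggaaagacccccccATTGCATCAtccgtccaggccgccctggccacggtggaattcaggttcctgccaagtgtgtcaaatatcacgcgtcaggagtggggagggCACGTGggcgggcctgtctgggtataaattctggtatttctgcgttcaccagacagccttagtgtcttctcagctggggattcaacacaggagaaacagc
Pfkm: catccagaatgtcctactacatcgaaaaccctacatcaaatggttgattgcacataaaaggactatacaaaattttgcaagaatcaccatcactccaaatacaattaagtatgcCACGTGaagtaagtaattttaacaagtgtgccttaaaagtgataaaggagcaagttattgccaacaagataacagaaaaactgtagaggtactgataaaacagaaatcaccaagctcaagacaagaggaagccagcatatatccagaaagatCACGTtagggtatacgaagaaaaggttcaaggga
The Has1 window holds TGACGTCA starting 83 bases upstream of the start site, a sequence found in 1.79% of 32851 mouse promoter windows of the same length. The Fgf21 window holds TGATGNAAN on the opposite strand, starting 140 bases upstream (3.95% of windows), and CACGTG starting 50 bases upstream. CACGTG was present for 4 of the 9 highest genes with a window (Dnajb9, Fgf21, Klf6 and Trmt61b) and for 2 of the 7 lowest (Irs1 and Pfkm), against 7.15% of windows, and some genes have several windows. ACGTG was present for 5 of 9 and 4 of 7, against 19.6% of windows, TTTNGCGC for 1 of 9 (Dnajb9) and 0 of 7, against 1.38%, and TGANTCA for 1 of 9 (Csrnp1) and 0 of 7, against 7.81%. The serum response element was in none of these windows and in 0.0639% of all windows. A match is a stretch of letters and not a measured binding site.

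The next genes were chosen because all 3 DMSO samples lay between the 2 inhibitor groups, so that arrangement is not a result. Of 3895 called genes that met the conditions for naming, 224 higher and 152 lower with piericidin were arranged this way. Polr2a (ENSMUSG00000005198, chr11:69733997-69758637), the largest subunit of RNA polymerase II, was 113, 114 and 103 CPM with piericidin, 81.1, 81.3 and 92 CPM with DMSO and 33, 34.8 and 31.3 CPM with oligomycin (log2 fold change 1.73, SE 0.073, adjusted p = 9.14e-18). Against DMSO, its log2 fold change was 0.37 with piericidin (adjusted p = 2.56e-05) and -1.36 with oligomycin (adjusted p = 4.78e-16, edgeR). Acsbg1 (ENSMUSG00000032281, chr9:54604877-54661870), an acyl-CoA synthetase, was arranged alike, at 60.7, 57.4 and 61.4 CPM, 43.1, 40.5 and 39.3 CPM and 18, 18.5 and 16.9 CPM in the same order (log2 fold change 1.75, SE 0.091, adjusted p = 1.26e-15). In the other direction, Eif5 (ENSMUSG00000021282, chr12:111538016-111546752), the translation factor that promotes GTP hydrolysis by eIF2, was 173, 175 and 173 CPM with piericidin, 281, 269.9 and 279.8 CPM with DMSO and 408, 416 and 426 CPM with oligomycin (log2 fold change -1.26, SE 0.046, adjusted p = 3.55e-19). Bcl2l1 (ENSMUSG00000007659, chr2:152780668-152831728), the anti-apoptotic BCL-XL, was 31.3, 33.6 and 30.7 CPM, 67.4, 53.9 and 59.1 CPM and 95.4, 94 and 93.3 CPM (log2 fold change -1.56, SE 0.07, adjusted p = 3.6e-17). In these 4 genes the 3 DMSO samples lay strictly between the 2 inhibitor groups. The same held for Csrnp1, Nfkb2 (1.56), Zfp444 (1.56) and Serpinb1a (1.59), which were higher with piericidin than with oligomycin. It also held for Slc35d2 (-1.39), Dtd1 (-1.26), Glod4 (-1.49) and Map2k3os (-1.42), which were lower. Against DMSO, Serpinb1a (-0.19) and Glod4 (0.22) were not called with oligomycin, and Map2k3os (-0.53) was not called with piericidin. Glod4 shares its annotated span with 4 expressed genes, and Map2k3os is named as an antisense gene of Map2k3, so their values are uncertain in libraries without strand.

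Genes of the ISR were measured in 2 lists. Among 9 transcription factors of the response that were tested, 6 were higher with piericidin and 2 lower, with a median of 0.73 against -0.0016 over all genes. Without piericidin replicate 1, 5 of the 9 were called. Atf3 (ENSMUSG00000026628, chr1:191170296-191218039) was 153, 163 and 145 CPM with piericidin, 61.8, 55.4 and 58.6 CPM with oligomycin and 0.62, 1.02 and 1.17 CPM with DMSO (log2 fold change 1.39, SE 0.14, adjusted p = 1.23e-09). Atf4 (ENSMUSG00000042406, chr15:80255184-80257541) itself differed less, with 1149, 1196 and 1206 CPM against 709, 707 and 723 CPM (log2 fold change 0.73, SE 0.032, adjusted p = 1.51e-17). Ddit3 (ENSMUSG00000025408, chr10:127290774-127296288), which encodes CHOP, was 360.2, 366 and 364 CPM against 250, 259 and 251 CPM (log2 fold change 0.52, SE 0.057, adjusted p = 1.07e-08). All 3 were thus higher in every piericidin sample than in any oligomycin sample, by 2.62-fold, 1.66-fold and 1.43-fold. Nupr1 (0.78), Atf5 (0.74) and Mafg (0.30) were also higher, while the repressor Jdp2 (-0.73) and Cebpg (-0.33), a dimer partner of ATF4, were lower. Cebpd stood at 0.89 but was not called (SE 0.46, adjusted p = 0.128). Cebpb did not pass the filter.

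Of 14 feedback and effector genes of the ISR tested, 9 were higher with piericidin and 2 lower, with a median of 0.61. After Fgf21, the largest difference was at Gdf15 (ENSMUSG00000038508, chr8:70629393-70632456), a secreted stress hormone, with 148, 166 and 157 CPM with piericidin, 49.5, 55.9 and 53.3 CPM with oligomycin and 5.17 ± 0.606 CPM with DMSO (log2 fold change 1.57, SE 0.10, adjusted p = 5.53e-14). Ppp1r15a, which encodes the eIF2α phosphatase subunit GADD34, stood at 1.03 (SE 0.083), the peptide hormone Adm2 at 0.98 and the glycoprotein Stc2 at 0.88. Smaller differences were called at Herpud1 (0.71), Chac1 (0.63), Pck2 (0.45) and Trib3 (0.35). The receptors Vldlr (-0.56) and Tnfrsf10b (-0.51) were lower with piericidin. Sesn2 (0.022), Eif4ebp1 (-0.044) and Ddit4 (0.60, SE 0.31) were not called, and Bbc3 was not tested. Against DMSO, 13 of the 14 were higher with piericidin, where 30.9% of all genes were, and 13 with oligomycin, where 24.5% were, at medians of 3.57 and 2.82. The 2 comparisons share the DMSO samples.

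Lists of amino acid metabolism and translation had smaller medians. Amino acid synthesis enzymes had 10 of 19 higher with piericidin and 2 lower, with a median of 0.15. The branched-chain aminotransferase Bcat1 (0.83) and asparagine synthetase Asns (0.39) were higher, and the proline enzyme Pycr1 (-0.58) was lower, while Phgdh, the first enzyme of serine synthesis, stood at 0.037 and was not called (95% confidence interval -0.025 to 0.10). Amino acid transporters had 5 of 13 higher and 2 lower, with a median of 0.21 (0.0747 to 0.227). The arginine carrier Slc7a1 (0.66) and both chains of the large neutral amino acid carrier, Slc7a5 (0.58) and Slc3a2 (0.51), were higher. The aspartate and glutamate carrier Slc1a3 (-1.02) and the glutamine carrier Slc1a5 (-0.49) were lower. Cytosolic tRNA synthetases had 9 of 20 higher and 4 lower, with a median of 0.091, from Mars at 0.72 to Farsb at -0.33. Purine and pyrimidine synthesis genes were divided evenly, 6 higher and 6 lower of 16 and a median of 0.10 (0.0459 to 0.122), with Umps (0.51), the last enzyme of UMP synthesis, at one end and Prps2 (-0.81), which makes the ribose donor PRPP, at the other. Ribosome biogenesis factors had 15 of 26 higher and 6 lower, with a median of 0.28. Nop56 (0.92), Rrp12 (0.86) and the methyltransferase Nop2 (0.80) were the highest of those called, and nucleolin, Ncl, was lower (-0.29).

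Chaperones and folding enzymes of the ER had the largest share of called members on one side among the 40 lists, since 18 of 20 were higher with piericidin and 0 lower, with a median of 0.56. Apart from Dnajb9, Xbp1 (ENSMUSG00000020484, chr11:5520659-5525893), the transcription factor that IRE1 activates by splicing its mRNA, was 366, 347 and 372 CPM with piericidin and 95, 101 and 111 CPM with oligomycin, against 30.0, 89 and 65.8 CPM with DMSO (log2 fold change 1.82, SE 0.26, adjusted p = 1.58e-06). Manf (ENSMUSG00000032575, chr9:106838312-106891979), a secreted ER protein, was 151, 135 and 142 CPM against 47.6, 48.2 and 50.5 CPM, with 98, 91.4 and 85.8 CPM with DMSO (log2 fold change 1.55, SE 0.07, adjusted p = 4.59e-17). Hspa5 (ENSMUSG00000026864, chr2:34771970-34777547), the main ER chaperone BiP, was 3053, 3124 and 3119.8 CPM against 1569.9, 1611 and 1587 CPM, with 762, 736 and 735 CPM with DMSO (log2 fold change 0.96, SE 0.042, adjusted p = 1.84e-17). For each of these genes every piericidin sample exceeded every oligomycin sample, and the DMSO samples of Xbp1 varied more than either. The ubiquitin ligase Syvn1 (1.25), calreticulin, Calr (0.79), and Hyou1 (0.70) followed. Edem1 (0.31) and Dnajb11 (0.56, SE 0.56) were not called. Set against DMSO, the same list had 10 higher and 5 lower with piericidin, and 5 higher and 12 lower with oligomycin, with medians of 0.28 and -0.35. Of all genes 30.9% were higher and 30.8% lower with piericidin, and 24.5% were higher and 26.3% lower with oligomycin. Of the cytosolic heat shock genes, 6 of 15 were higher with piericidin than with oligomycin and 3 lower, with a median of 0.15 (0.0718 to 0.203). The co-chaperone Bag3 (1.27), the small heat shock protein Hspb1 (1.06) and Hspa1b (1.03) were higher, and Hspa4 (-0.50) was lower. Hspa1b has a near-identical neighbour, Hspa1a (0.43, not called), so the split of reads between them is uncertain.

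Among transcripts made from mitochondrial DNA, most of those that encode complex I subunits were lower with piericidin. The genome of the mitochondrion encodes 7 subunits of complex I, 3 of complex IV, 2 of ATP synthase and 1 of complex III, and all 13 messenger RNAs were tested. Of these, 7 were lower with piericidin than with oligomycin and 1 was higher, with a median of -0.39, and 6 of the 7 complex I subunits were among the lower ones. mt-Nd1 was 1106, 999 and 908 CPM with piericidin and 2358, 2048 and 2103 CPM with oligomycin, against 2182, 1886 and 1709 CPM with DMSO (log2 fold change -1.11, SE 0.086, adjusted p = 1.02e-11). Its piericidin samples were all below the DMSO samples. mt-Nd2 was 152, 145 and 121 CPM with piericidin, 241, 203 and 222 CPM with oligomycin and 209.9, 194 and 183 CPM with DMSO (log2 fold change -0.67, SE 0.10, adjusted p = 2.44e-06). mt-Nd3, mt-Nd4, mt-Nd5 and mt-Nd6 stood between -0.72 and -0.52, and mt-Nd4l at -0.39 was not called (SE 0.47). mt-Nd6 lies on the opposite strand and its span overlaps that of mt-Nd5, so its value is uncertain in libraries without strand. mt-Co3, a subunit of cytochrome c oxidase, went the other way, with 1368, 1258 and 1184 CPM with piericidin, 843, 796 and 816 CPM with oligomycin and 1249.7, 1202 and 1122 CPM with DMSO (log2 fold change 0.63, SE 0.058, adjusted p = 2.81e-10). In this case it was oligomycin that stood apart from DMSO. mt-Co1 (-0.085), mt-Co2 (0.075) and mt-Cytb (-0.15) were not called. Of the ATP synthase subunits, mt-Atp8 was lower (-0.35) and mt-Atp6 was not called (-0.35, adjusted p = 0.076). The 13 messenger RNAs together took 0.688% to 0.839% of the counts of the piericidin samples and 0.920% to 1.09% of those of the oligomycin samples.

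**Figure D3:**
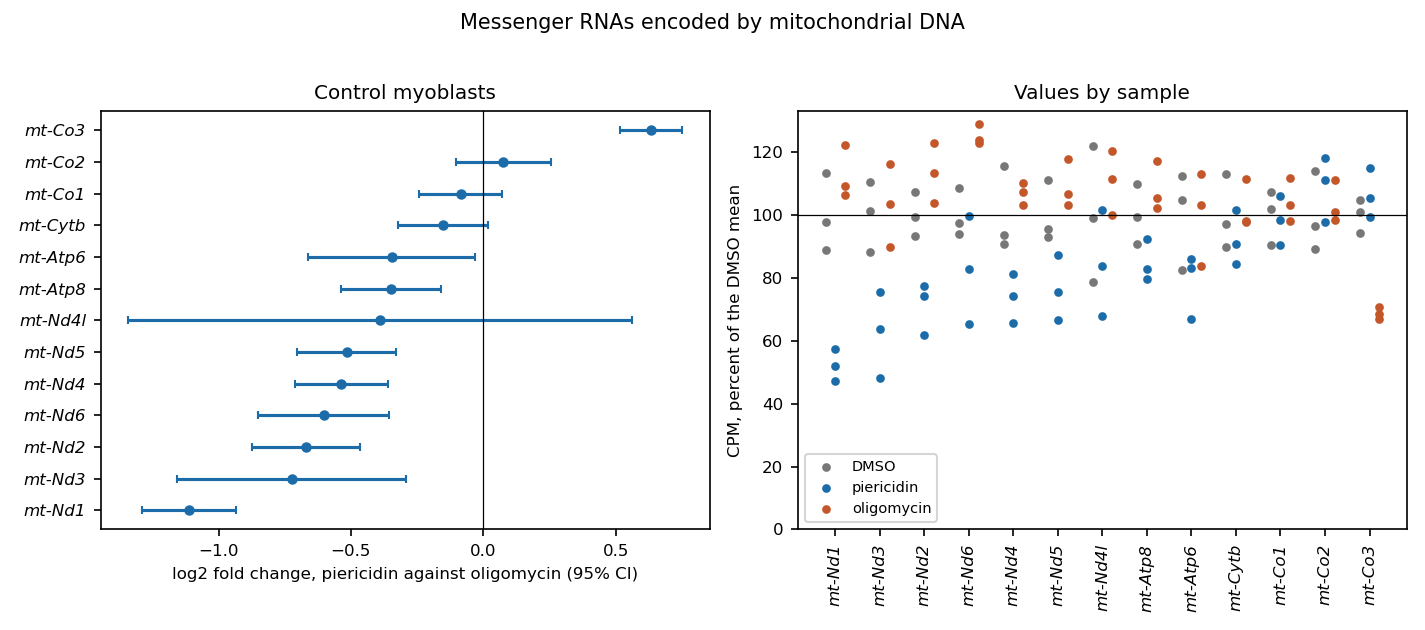
The 13 messenger RNAs of mitochondrial DNA in control myoblasts. The left panel gives the log2 fold change of piericidin over oligomycin with its 95% confidence interval, from mt-Nd1 (-1.11) to mt-Co3 (0.63). The right panel gives each sample's CPM as a percent of the DMSO mean of that gene, with 3 points per treatment.

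Of 36 nuclear complex I subunits, 4 were higher with piericidin and 8 lower, with a median of -0.028 (-0.0523 to -0.00109), where 39.2% of all genes were called in either direction, and 7 were called when no filter on low counts was used. Ndufb8 (-0.57) and Ndufb9 (0.45) were the extremes. Nuclear ATP synthase genes had 8 of 16 lower and 1 higher, with a median of -0.13, led by Atp5k (-0.81), a subunit of the membrane part, and Atp5g2 (-0.63), which encodes the c ring protein that oligomycin binds. Genes of fatty acid oxidation had 10 of 17 lower and 2 higher, with a median of -0.19. The inner carnitine palmitoyltransferase Cpt2 (-1.01) was lower and the outer one, Cpt1a (0.37), higher. Of the pyruvate dehydrogenase and TCA cycle genes, 11 of 28 were lower and 4 higher, with a median of -0.18. Cytosolic isocitrate dehydrogenase, Idh1, was 9.4, 11.4 and 9.05 CPM with piericidin and 19.8, 21.9 and 19.3 CPM with oligomycin (log2 fold change -1.03, SE 0.11, adjusted p = 3.28e-09), and the pyruvate dehydrogenase kinase Pdk4 stood at -0.89. Mitochondrial chaperones and proteases were divided, 5 higher, such as Grpel2 (0.75) and Clpp (0.62), and 4 lower, such as the protease Oma1 (-0.57), of 16, with a median of 0.035 (-0.0131 to 0.0708). Mitochondrial ribosomal proteins had 7 of 26 called, 3 higher and 4 lower, with a median of -0.039 (-0.0571 to -0.00908). Of 13 regulators of mitochondrial biogenesis, Ppargc1b (-0.86), its partner Esrra (-0.84) and the polymerase Polrmt (-0.46) were lower and Tfam (0.37) was higher, and 2 were called without piericidin replicate 1. The list had a median of 0.042 (-0.00324 to 0.152).

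Glycolytic genes were mostly lower with piericidin than with oligomycin, 11 of 17, with 3 higher and a median of -0.19. All 3 subunits of phosphofructokinase, the main control step of the pathway, were lower, Pfkm as given above, Pfkl at -0.70 and Pfkp at -0.57. Pfkfb1, an enzyme that sets the level of their activator, was also lower (-1.74, SE 0.51). Hk1, the first enzyme, was 22.4, 29.2 and 21.2 CPM with piericidin and 38.4, 39.2 and 38.1 CPM with oligomycin (log2 fold change -0.67, SE 0.083, adjusted p = 1.13e-07). The glucose carrier Slc2a1 (ENSMUSG00000028645, chr4:119108711-119137983) stood on the other side, with 145, 130.4 and 146 CPM with piericidin, 71, 63.9 and 64.7 CPM with oligomycin and 45.9, 45.3 and 40.6 CPM with DMSO (log2 fold change 1.08, SE 0.077, adjusted p = 1.5e-12). Pgk1 (0.20) and Pfkfb4 (0.54) were the other 2 that were higher. Enzymes and carriers of NADH shuttles had 5 of 15 called, with lactate dehydrogenase A, Ldha (-0.44), the citrate carrier Slc25a1 (-0.71) and Gpd2 (-0.17) lower and Mdh2 (0.23) and Got2 (0.13) higher, and 3 were called without oligomycin replicate 2. That list had a median of -0.11 (-0.123 to -0.00336). Of 17 targets of hypoxia-inducible factors, 6 were higher, among them Ndrg1 (0.75) and Vegfa (0.64), and Egln3 and Pdk1 (-0.50) were lower, with a median of 0.078 (0.00698 to 0.194). Of 4 genes of the glucose sensor MondoA, with a median of 0.10 (-0.00857 to 0.144), Arrdc3 was called and lower (-0.68), though not without oligomycin replicate 2 or without piericidin replicate 3, when 0 were called, and Txnip stood at 0.073 (95% confidence interval -0.52 to 0.66).

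All 25 tested genes of cholesterol synthesis and uptake were below DMSO with each inhibitor (called for 25 with piericidin, where 30.8% of all genes were lower, and for 25 with oligomycin), but the 2 inhibitors differed in both directions. With piericidin, 11 were lower than with oligomycin and 5 higher, with a median of -0.19. Dhcr7 (ENSMUSG00000058454, chr7:143823145-143848410), which acts late in cholesterol synthesis, was 4.48, 2.81 and 3.54 CPM with piericidin, 8.73, 10.9 and 8.97 CPM with oligomycin and 31, 28.8 and 27.4 CPM with DMSO (log2 fold change -1.40, SE 0.17, adjusted p = 9.28e-08). Squalene synthase, Fdft1, stood at -0.83. Pmvk (0.77) and Fdps (0.45), which act earlier in the pathway, were higher. In fatty acid synthesis 7 of 13 were lower and 1 was higher, with a median of -0.21, and 5 were called without oligomycin replicate 1 or without piericidin replicate 3. The desaturase Scd2 (-1.04) and the elongase Elovl6 (-0.64) were the lowest, and the acyl-CoA synthetase Acsl3 (0.98) was the one above.

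Genes of DNA replication and S phase were lower with piericidin in 20 of 36 cases and higher in 6, with a median of -0.21. Tk1 (ENSMUSG00000025574, chr11:117815526-117826092), the S-phase thymidine kinase, was 30.4, 29.5 and 28.4 CPM with piericidin, 72.6, 75.7 and 70.4 CPM with oligomycin and 177, 183 and 189 CPM with DMSO (log2 fold change -1.31, SE 0.058, adjusted p = 3.08e-17). Ccne1 (ENSMUSG00000002068, chr7:38097984-38107534), the cyclin that starts S phase, was 11.3, 12.5 and 10.7 CPM, 25.4, 28.3 and 29.1 CPM and 69.7, 89.1 and 73.6 CPM (log2 fold change -1.26, SE 0.10, adjusted p = 2.96e-11). Both were lowest with piericidin and highest with DMSO. Ccne2 (-0.78) and the replicative helicase subunit Mcm3 (-0.58) were also lower, whereas Mcm10 (0.84) and Fen1 (0.69) were higher. Genes of G2 and mitosis went both ways, 10 higher, led by the spindle factors Tpx2 (0.72) and Prc1 (0.59), and 8 lower, led by the checkpoint kinase Bub1 (-0.70), of 28, with a median of 0.10. The cell cycle inhibitor Cdkn1a (ENSMUSG00000023067, chr17:29090976-29100727) was 224, 231 and 224 CPM with piericidin and 133, 131 and 126 CPM with oligomycin, against 111, 118 and 112 CPM with DMSO (log2 fold change 0.80, SE 0.052, adjusted p = 1.53e-13). Of 9 G1 cyclins, their kinases and inhibitors, 4 were higher, including Cdkn1b (0.60), and Ccnd1 (-0.37) and Ccnd3 (-0.34) were lower, with a median of 0.27 (0.116 to 0.287). Of 18 p53 targets, 5 were higher, among them Pmaip1 and Plk2 (0.76), and 3 lower, among them Perp (-1.91), while Mdm2, the feedback inhibitor of p53, stood at 0.038 and was not called (95% confidence interval -0.077 to 0.15). The p53 list had a median of 0.066 (0.022 to 0.086), and its 8 calls became 5 with DESeq2's Wald test, with no filter on low counts, without oligomycin replicate 2 and without piericidin replicate 2.

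Immediate early genes, which growth factor and stress signals induce within minutes, differed in both directions. Of 18 tested, 10 were higher with piericidin and 5 lower, with a median of 0.30. The 3 early growth response factors were all lower. Egr2 was 1.01, 0.649 and 1.04 CPM with piericidin, 2.07, 3.85 and 2.16 CPM with oligomycin and 5.23, 5.78 and 5.91 CPM with DMSO (log2 fold change -1.58, SE 0.45, adjusted p = 0.00549). Egr3 was 0.448, 0.324 and 0.104 CPM, 1.12, 0.836 and 1.93 CPM and 1.95, 3.13 and 2.15 CPM (log2 fold change -2.09, SE 0.47, adjusted p = 0.000662). Junb (-0.72) and Klf10 (-0.62) were lower as well. In contrast, Jun (ENSMUSG00000052684, chr4:95049034-95052222) was 163, 152 and 167 CPM with piericidin and 68.8, 65.8 and 70.7 CPM with oligomycin (log2 fold change 1.23, SE 0.052, adjusted p = 1.06e-17), and Nr4a1, Fosl2, Maff and Klf4 stood between 1.26 and 0.85. Fos was not called (-0.82, SE 0.38). MAP kinase phosphatases and Sproutys, which restrain ERK, JNK and p38 signals, also differed in both directions, 5 higher and 3 lower of 14, with a median of 0.26 (-0.00697 to 0.346). Spry2 (-0.95), Spry4 (-0.57) and Dusp6 (-0.52), feedback inhibitors of receptor tyrosine kinase and ERK signalling, were lower. Dusp10 (1.24), Dusp16 (1.04) and Dusp8 (0.98), phosphatases of JNK and p38, were higher, as were Dusp1 and Dusp14.

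Of 14 YAP targets 4 were higher with piericidin, led by Ctgf (0.91) and Cyr61 (0.81), and 5 lower, among them the kinase Lats2 (-0.43), with a median of -0.18. ID proteins and SMAD feedback genes had 3 of 11 called, with Id1 (-0.47) among those lower and Id3 (0.19) higher, and a median of -0.022 (-0.0478 to 0.0188). Among 13 cytokine and chemokine genes, Ptgs2 (ENSMUSG00000032487, chr1:150100031-150108227), the inducible prostaglandin synthase, was 1098, 1133 and 1085 CPM with piericidin, 470.0, 437 and 481 CPM with oligomycin and 67.7, 67.8 and 73.9 CPM with DMSO (log2 fold change 1.26, SE 0.066, adjusted p = 1.64e-15). The cytokine Il11 (1.23) and the NF-κB inhibitor Nfkbia (1.04) were also higher, and Cxcl5 (-1.09), Csf1 (-0.72) and Cxcl12 (-0.70) were lower. The list had a median of -0.39 (-0.613 to 0.233). Collagens and matrix genes had 5 of 16 higher, such as fibronectin, Fn1 (0.42), and 4 lower, such as both chains of type I collagen, Col1a1 (-0.31) and Col1a2 (-0.28), with a median of 0.14 (0.0824 to 0.158).

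Core genes of the circadian clock had a median of 0.74, with 7 of 13 higher with piericidin and 2 lower. Ciart (ENSMUSG00000038550, chr3:95878503-95882251), a repressor of CLOCK and BMAL1, was 57.5, 57.9 and 58.4 CPM with piericidin, 16.2, 17.7 and 17.7 CPM with oligomycin and 5.05, 4.22 and 3.41 CPM with DMSO (log2 fold change 1.75, SE 0.13, adjusted p = 2.62e-12). Cry1 (ENSMUSG00000020038, chr10:85131700-85185064), another repressor, was 43.9, 35.9 and 43.7 CPM against 17.9, 14 and 17 CPM (log2 fold change 1.34, SE 0.24, adjusted p = 3.12e-05). The period genes Per1 (0.84) and Per2 (1.04), Cry2 (1.04), Nfil3 (1.19) and Arntl (0.74), which encodes BMAL1, were higher too. Nr1d1 and its paralog Nr1d2 (-0.53), repressors of Arntl, were lower, and Clock (-0.031) and Dbp (-0.016) were not called. All samples had 1 treatment time, so the values give no phase.

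Autophagy and lysosome genes had 11 of 21 higher and 1 lower, with a median of 0.37. Sqstm1 (ENSMUSG00000015837, chr11:50199366-50210827), the cargo receptor p62, was 4256, 4537 and 4447 CPM with piericidin, 1666, 1633 and 1604 CPM with oligomycin and 458, 491 and 486 CPM with DMSO (log2 fold change 1.43, SE 0.032, adjusted p = 1.48e-24). The receptor Nbr1 (0.79) and the LC3 gene Map1lc3b (0.45) were higher, and Wipi1 (-0.99), which acts at the forming membrane, was lower. NRF2 antioxidant genes were divided, 5 higher and 6 lower of 17, with a median of -0.047 (-0.123 to 0.0868). Hmox1 (ENSMUSG00000005413, chr8:75093621-75100589), heme oxygenase, was 278, 295 and 287 CPM against 108, 94.2 and 102 CPM (log2 fold change 1.5, SE 0.07, adjusted p = 9.7e-17), while Nqo1 (-0.68) and the heme carrier Slc48a1 (-0.80) were lower. Metallothioneins Mt1 (0.64) and Mt2 (0.27) were higher and the zinc importer Slc39a10 (-0.80) lower, of 4 tested, with a median of 0.17 (0.101 to 0.237). Of 8 myoblast markers, Myf5, Itga7 (0.27), Myod1 (0.19) and Des (0.12) were higher and none was lower, with a median of 0.086, but 2 were called with no filter on low counts, when only the groups compared were fitted, and without oligomycin replicate 1, oligomycin replicate 3 or piericidin replicate 3.

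**Figure D4:**
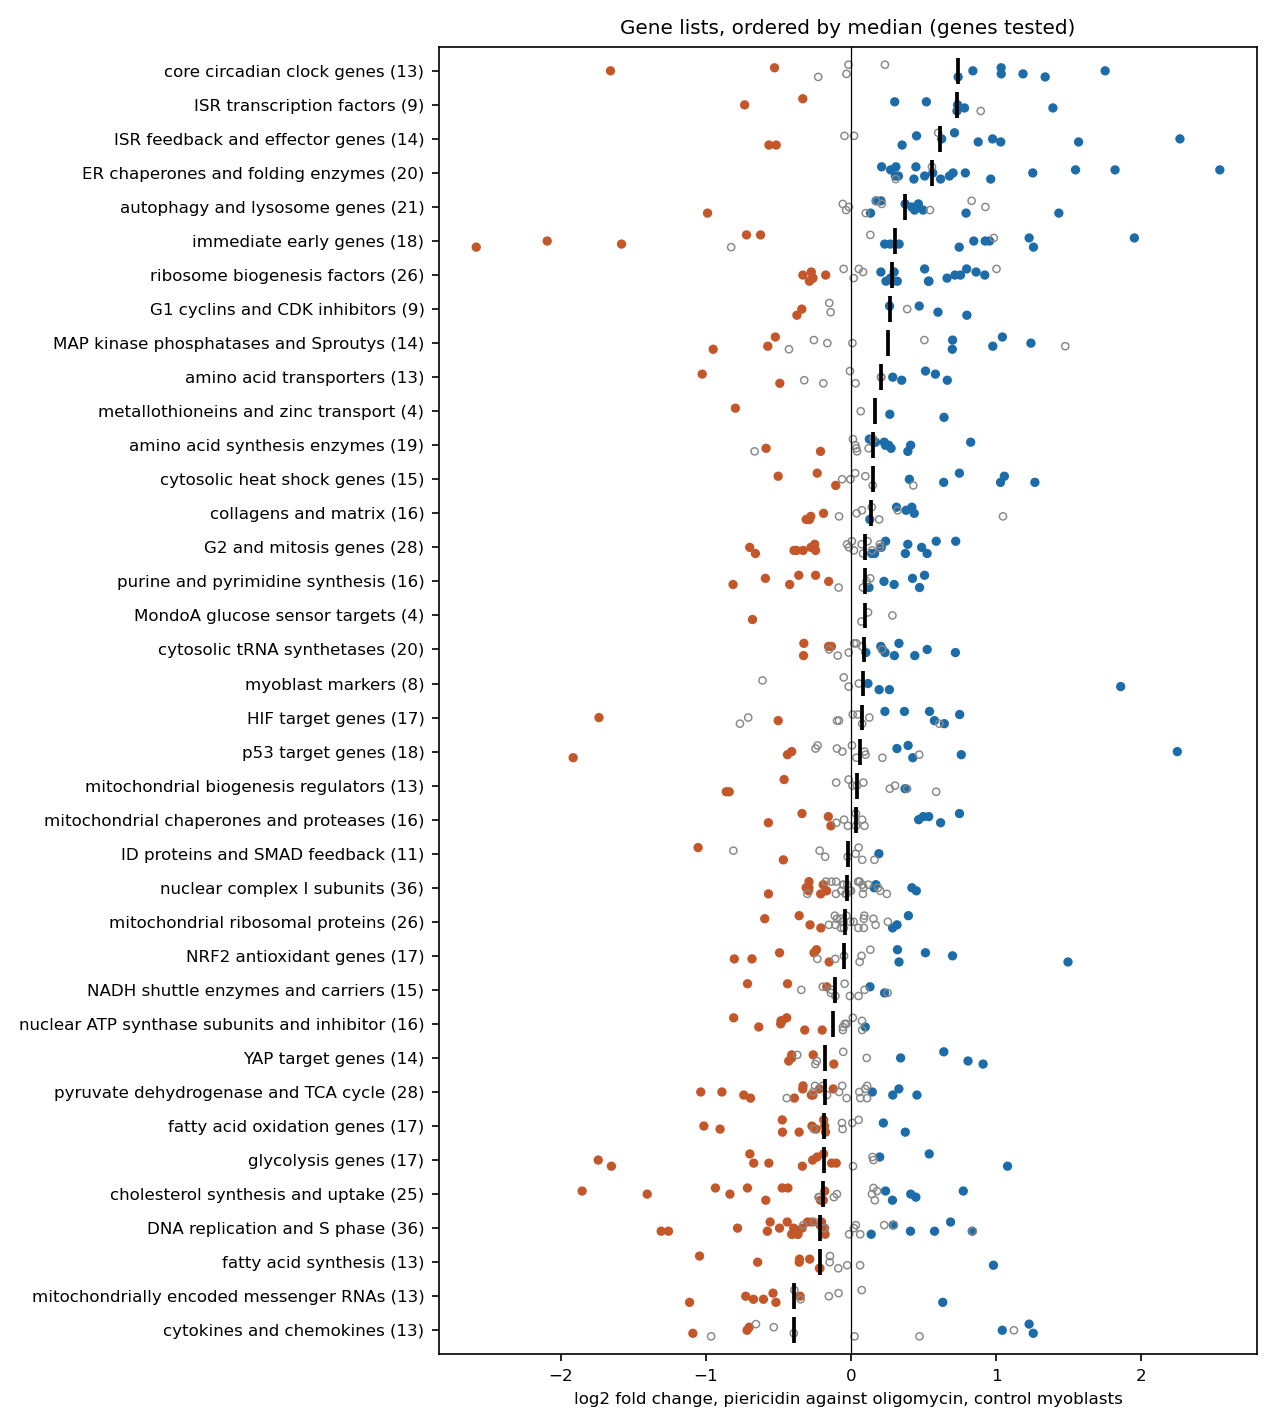
Log2 fold change of piericidin over oligomycin in control myoblasts (horizontal axis) for the tested members of the 38 gene lists with at least 4 tested members, ordered by median, with the number of genes tested in brackets. Filled points are called genes (blue higher, orange lower with piericidin) and open points are not called. Black bars are medians, from -0.393 for cytokines and chemokines, whose median changed sign in other fits, to 0.74 for core circadian clock genes. Mitochondrially encoded messenger RNAs were next to lowest, at -0.389.

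The same inhibitors were compared in myoblasts expressing LbNOX, a bacterial enzyme that oxidizes cytosolic NADH with oxygen and so bypasses the need for complex I to regenerate NAD+. None of these 6 samples was part of the control comparison. In them 3126 of 11981 genes differed (26.1%), 1491 higher with piericidin (12.4%) and 1635 lower (13.6%). The difference between the inhibitors itself differed between control and LbNOX myoblasts at 4144 genes (34.6%, interaction term, edgeR). Of the 273 genes at least 2-fold higher with piericidin in control myoblasts, 61 were higher and 28 lower with piericidin in LbNOX myoblasts, and of the 338 at least 2-fold lower, 22 were lower and 50 higher. The shares, 22.3% and 10.3% for the first set and 6.51% and 14.8% for the second, can be set beside the 12.4% higher and 13.6% lower of all genes.

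In LbNOX myoblasts 0 of 9 ISR transcription factors were higher with piericidin than with oligomycin and 5 lower, where control myoblasts had 6 higher and 2 lower. Of the 14 feedback and effector genes, 0 were higher with piericidin and 12 lower, with a median of -1.37, and the interaction was called at 13 with a positive and 1 with a negative sign (18.3% and 16.3% of all genes). Fgf21 measured 0.31 ± 0.152 CPM with piericidin and 3.8 ± 0.831 CPM with oligomycin in LbNOX myoblasts (SD, n = 3 each), where control myoblasts had 37.4 ± 2.11 and 7.83 ± 2.16 CPM. The interaction, control minus LbNOX, was 5.89 on the log2 scale (SE 0.57, adjusted p = 1.35e-09). Atf3 measured 2.19 ± 0.309 CPM with piericidin and 14.4 ± 2.3 CPM with oligomycin (interaction 4.13, SE 0.25, adjusted p = 7.26e-14), and Ddit3 28.9 ± 1.78 and 125 ± 2.57 CPM (interaction 2.64, SE 0.085, adjusted p = 2.5e-20). In all 3 genes piericidin was the higher treatment in control myoblasts and the lower one in LbNOX myoblasts. In 4 further lists most members were likewise lower with piericidin than with oligomycin in LbNOX myoblasts, 17 of 20 tRNA synthetases, 13 of 19 amino acid synthesis enzymes, 10 of 13 amino acid transporters and 22 of 26 ribosome biogenesis factors. In control myoblasts the members called lower were 4, 2, 2 and 6 in the same lists, and the interaction was called with a positive sign at 15, 14, 10 and 23. Prg4, Gadd45a and Avil, which encodes an actin-binding protein of the villin family, had further large positive interactions. Avil was lower with piericidin in both lines, at -0.79 in control myoblasts (17.6, 27 and 22.6 against 39.2, 39.6 and 37.3 CPM) and -5.17 in LbNOX myoblasts (interaction 4.38, adjusted p = 5.66e-09), and it overlaps the expressed gene Tsfm on the opposite strand.

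Several lists with lower members in control myoblasts had higher ones in LbNOX myoblasts. Of 25 cholesterol genes, 24 were higher with piericidin than with oligomycin in LbNOX myoblasts and 0 lower, with a median of 0.71, and the interaction was called and negative at 21. Glycolytic genes had 9 of 17 higher and 1 lower, and DNA replication genes had 13 of 36 higher and 1 lower. Irs1 stood at 1.14 in LbNOX myoblasts (interaction -2.87, adjusted p = 7.96e-12), Adamts5 at 0.63 (interaction -3.32, adjusted p = 4.77e-09) and Olfml2b at 0.63 (interaction -2.62, adjusted p = 1.15e-12).

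For the 13 mitochondrial messenger RNAs, 6 were lower and 1 higher with piericidin in LbNOX myoblasts, with a median of -0.27. mt-Nd1 stood at -0.63 (adjusted p = 1.16e-06) and mt-Co3 at 0.30 (adjusted p = 0.000182), each of smaller size than in control myoblasts by the interaction (adjusted p = 0.00211 and 0.00153). ER chaperones had 10 of 20 higher and 4 lower, with a median of 0.27, and the interaction was called at 12 with a positive and 1 with a negative sign. Manf (0.68) and Sdf2l1 (1.14) were higher with piericidin in LbNOX myoblasts, but Dnajb9 (-0.39) and Hspa5 (-0.49) were lower. Polr2a was higher in both, at 0.82 in LbNOX myoblasts (adjusted p = 2.56e-10).

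In untransduced myotubes, 3155 of 12592 genes differed between the inhibitors (25.1%), 1396 higher with piericidin (11.1%) and 1759 lower (14%), and the difference between the inhibitors differed between control myoblasts and myotubes at 4204 genes (33.4%, edgeR). These cells differed from the control myoblasts in cell state, medium, doxycycline and the luciferase gene together. Of the 14 ISR effectors, 12 were lower with piericidin in myotubes and 0 higher, with a median of -1.80. Atf3 measured 5.58 ± 0.813 CPM with piericidin and 178 ± 4.17 CPM with oligomycin in myotubes (interaction 6.35, SE 0.13, adjusted p = 1.57e-20), Gdf15 4.76 ± 1.39 and 44 ± 0.821 CPM (interaction 4.70, adjusted p = 6.11e-17) and Ptgs2 7.07 ± 1.11 and 84.2 ± 10.4 CPM (interaction 4.83, adjusted p = 1.57e-18). Oligomycin was thus the higher treatment for these genes in myotubes, where piericidin was the higher one in control myoblasts. Ciart stood at -2.93 and the serpin Serpinb9g at -3.31 in myotubes, against 1.75 and 1.52 in control myoblasts. Egr1 was 64.3 ± 3.88 CPM with piericidin and 46 ± 1.45 CPM with oligomycin (interaction -3.08, adjusted p = 7.21e-13), and Crip1 and the inositol monophosphatase Impa2 (-1.52 in control myoblasts and 1.19 in myotubes) also had negative interactions. For mitochondrial messenger RNAs the called differences ran the other way, with 8 of 13 higher and 0 lower with piericidin in myotubes, a median of 0.26, and 9 negative interactions (15.7% of all genes, against 17.7% with positive ones). ER chaperones had 10 of 20 higher and 3 lower, while Dnajb9 stood at -0.15 and was not called (adjusted p = 0.0952).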

How the data were processed

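RNA-seq of 96 C2C12 samples was deposited as 1 table of estimated counts per gene, which the authors made with kallisto 0.44 on transcripts of the mouse build mm10 after bcl2fastq 2.20.0.422 and summarized to genes, with no further normalization (Smart-seq2, poly(A)-selected, not strand specific). Those values were rounded to whole counts. Depth was 9282791 to 12313851 counts in the 6 samples compared, which limits precision for genes near the filter.

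Following the study's methods, a gene was kept if all replicates of 1 condition reached 16 counts. The test was edgeR's quasi-likelihood F (edgeR 4.0.16, R 4.3.3, limma 3.58.1, TMM), p-values were adjusted over the genes tested by Benjamini and Hochberg's procedure, and 0.05 was the threshold. One fit held the 37 myoblast samples treated for 10 hr (11981 genes) and gave the comparisons among myoblasts. These included antimycin samples and lines that expressed a mitochondrial LbNOX or the yeast enzyme NDI1. A second fit held 24 control myoblast and myotube samples (12592 genes), again with DMSO and antimycin samples. The spread was estimated over all samples of each fit. SE was derived from each fold change and its F statistic, and SD values are over 3 samples. The scripts were tested on simulated data.

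Named genes were the 12 with the largest log2 fold change in each direction among called genes with a mean of at least 5 CPM, groups that did not overlap and a symbol that is not a predicted, Riken or pseudogene name, the 6 in each direction whose DMSO samples lay between the inhibitors, the 5 in each direction with the largest called interactions among genes that met these conditions, and up to 4 called members per list. Some genes that this rule selects are not reported here. Further list members were named after their values were seen. The members of the comparison, the 40 gene lists and the tests were chosen with earlier results of these data known, so no list was tested as a set. Gene coordinates are of build GRCm38 (GENCODE M21), and promoter windows are RefSeq's on GRCm38.p6.

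Alternatives were the size factors of DESeq2 1.42.0, no filter on low counts, DESeq2's Wald test, a replicate block, only the groups compared, the outer or inner position code as a covariate, and leaving out each replicate. Every column used belongs to a sample in the labels, and the fits also held samples outside the comparisons reported. Among 87 pairs of replicates none was identical, and a chi-square statistic per gene of 2.64 to 13.5 showed each pair to differ beyond sampling noise.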

Additional observations from a re-analysis of the deposited data

Results flagged for a closer look

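Results are listed here because the difference between piericidin and oligomycin itself differed between 2 kinds of cells by an interaction term (edgeR quasi-likelihood test), and their values are log2 interactions, control myoblasts minus the other cells. Between control and LbNOX myoblasts 4144 genes were called. The naming rule took up to 5 in each direction by size, and other named genes were called as well. Positive interactions chosen by that rule were those of Fgf21 (5.89), Prg4 (5.67), Avil (4.38), Atf3 (4.13) and Gadd45a (4.02). Negative ones chosen by it were those of Adamts5 (-3.32), Irs1 (-2.87) and Olfml2b (-2.62).

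Between control myoblasts and myotubes 4204 genes were called, and these cells differed in state, medium, doxycycline and transgene together. Positive interactions chosen by the same rule were those of Atf3 (6.35), Ptgs2 (4.83), Serpinb9g (4.82), Gdf15 (4.70) and Ciart (4.67). Negative ones were those of Egr1 (-3.08), Impa2 (-2.73), Crip1 (-2.55) and Adamts5 (-2.52).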

How the results depend on the processing

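Counts of called genes stayed within 1.5 times the reported count under every alternative run for the 7 comparisons. For piericidin against oligomycin in control myoblasts the 4693 genes became 4155 with no filter on low counts and 4877 with the position code as a covariate, and 4104 to 4318 when 1 replicate was left out. In LbNOX myoblasts the 3126 genes became 2182 when only the groups compared were fitted, and 2595 to 2840 with a replicate left out. In myotubes the 3155 genes became 2317 with the position code, and 2427 to 2952 with a replicate left out. The 4144 interaction genes of LbNOX ranged from 3547 to 4322 and the 4204 of myotubes from 3513 to 4196 (leave-outs 3803 to 3922 and 3835 to 4007). Against DMSO, the 7389 genes of piericidin ranged from 6850 to 7472 and the 6081 of oligomycin from 5515 to 6172. The 33 genes named for the size of their difference or for DMSO values between the inhibitors kept direction and call under the 12 alternatives run for each, as did the 17 interactions named for their size under 18 alternatives each. Genes named as list members were not refitted one by one. For called list members, 463 counts stayed within 1.5 times and 17 did not, each given beside its list, and the ranges of list medians stand there too.

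The main fits did not pair the samples by replicate number. Correlations of deviations from a mean of 3 samples cannot settle whether the numbers pair them. Not every same-numbered pair of piericidin and oligomycin samples correlated above 0.1 in any of the 3 kinds of cells. The values were -0.141, 0.299 and 0.431 in control myoblasts, -0.285, -0.174 and 0.49 in LbNOX myoblasts and 0.117, 0.153 and 0.0396 in myotubes. In myotubes every sample correlated best with its own number, a hint from the data and not from the design, and in both myoblast lines not every sample did. A replicate block gave 4772 genes in control myoblasts, 3185 in LbNOX myoblasts, 3239 in myotubes, 4206 and 4196 for the interactions, and 7472 and 6172 against DMSO. With 3 samples per group, differences at low counts carry wide errors.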
